A study of Mus musculus with 2 samples.

Results

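The genes described here are 40 genes of the cell cycle, taken as a list of symbols by the function of their products, with earlier results of these data known, out of 23951 gene symbols found in both libraries. They fall into 13 genes of DNA replication in S phase, 15 genes of the G2 phase and mitosis (G2/M), 4 G1 cyclins and kinases, 4 genes of the switch from G1 to S phase, and 4 inhibitors. RNA-seq was carried out on optic nerves at postnatal day 12 (P12) with 1 library per genotype. The control library came from mice with the genotype Tcf7l2 c/+; OLig1-cre, which carry 1 floxed *Tcf7l2* allele, and the mutant library from Tcf7l2 c/c; OLig1-cre mice, in which both alleles are floxed (*Tcf7l2*ΔHMG). Both groups carry the Cre recombinase driven by *Olig1*, which acts in the oligodendrocyte (OL) lineage, so cells outside that lineage keep their *Tcf7l2* alleles in both. The excised exon encodes the DNA-binding HMG box and is removed in frame, so the gene is still transcribed. How many animals each library holds was not given in the sources used here.

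A dividing cell passes through G1, copies its DNA in S phase and separates the chromosomes in mitosis after G2. D-type cyclins with the kinases Cdk4 and Cdk6, and then E-type cyclins with Cdk2, phosphorylate the retinoblastoma protein and so release E2F factors, which transcribe the genes of DNA replication. Genes of G2 and mitosis are transcribed later, and their mRNA is a common marker of dividing cells. In white matter, OL precursor cells (OPCs) divide and then leave the cycle as they become OLs, and the inhibitor p27, encoded by *Cdkn1b*, is known for its part in that exit. The comparison of both libraries asks whether the genes of replication, of mitosis and of the inhibitors differ in the nerve of *Tcf7l2*ΔHMG mice, in which OL differentiation is impaired.

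Values are FPKM, the fragments per kilobase of transcript scaled to the number of mapped fragments, as the authors computed them with Cufflinks. The log2 ratio is that of *Tcf7l2*ΔHMG over control after 0.1 was added to each FPKM, which understates the change of low genes. Where a pair of FPKM values is given, that of the control comes first. With 1 library per genotype there was no replicate and no test, and the Cufflinks intervals given below cover counting within 1 library and not the variation between animals. The libraries held 27624000 and 39938000 mapped fragments, as read from the interval bounds of short rows, so that on a transcript of 1 kb 3 fragments amount to 0.109 FPKM and 0.0751 FPKM. The comparison covered 14199 genes that reached 1 FPKM in either library and that Cufflinks marked as OK each time. Their median log2 ratio was 0.05, and 90% of genes lay between −0.83 and 1.18. A fold change above 1.5, the cutoff the study used for its scatter plot, was passed by 8.52% of these genes with a lower and by 15.4% with a higher FPKM in the mutant. The targeted gene itself was listed at 17.8 and 14.6 FPKM. This gene-level value does not check the labels, since the excised exon is a small part of the transcript. Markers of the labelled tissue were present, with the myelin gene *Mbp* at 16990 and the astrocyte gene *Gfap* at 4059 FPKM in the control, while none of 6 photoreceptor markers reached 1 FPKM in either library.

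Most cell cycle genes had nearly the same FPKM in both libraries. Of the 40 genes, 38 passed the filter on low values. The exceptions were *Cdk6*, at 0.383 and 0.575 FPKM, and *Ccne2*, which was listed at 0 in both libraries with upper interval bounds of 0.316 and 0.159 FPKM. Of the 38, 1 was lower by a fold change above 1.5 (*E2f1*) and 3 were higher (*Ccnd3*, *Cdkn1a* and *Cdc20*). Over all genes tested, 8.52% were lower and 15.4% higher. *Cdc20* was listed at 0 in the control and passed the filter through its mutant value alone. The median log2 ratio of the 38 genes was 0.02, beside 0.05 for all genes tested. A fold change within 1.25 was found for 30 of the 38, compared with 54.0% of all genes tested. None of the 28 genes of S phase and G2/M other than *Cdc20* passed the cutoff.

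The direction of *Cdkn1a*, *Ccnd3* and *E2f1* was the same under every scaling tried. All directions are given relative to the FPKM as deposited. Rescaling all rows, unnamed ones included, to a common sum shifted the median of all genes from 0.05 to −0.63, and *Cdkn1a* then stood at 0.47, *Ccnd3* at 0.27 and *E2f1* at −1.55. The counts by the cutoff changed from 1 lower and 3 higher to 23 lower and 1 higher among the 38 genes, beside 54.4% lower and 3.67% higher among all genes. The S phase and G2/M medians followed the shift, to −0.64 and −0.61. *Mki67* (−0.31), *Ccnb2* (−0.19), *Ccnd2* (−0.37) and the other inhibitors (median −0.37) then lay below 0 but above the median of all genes. Centred on the median of all genes instead, these values were 0.30, 0.42, 0.25 and 0.23.

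**Figure D1:**
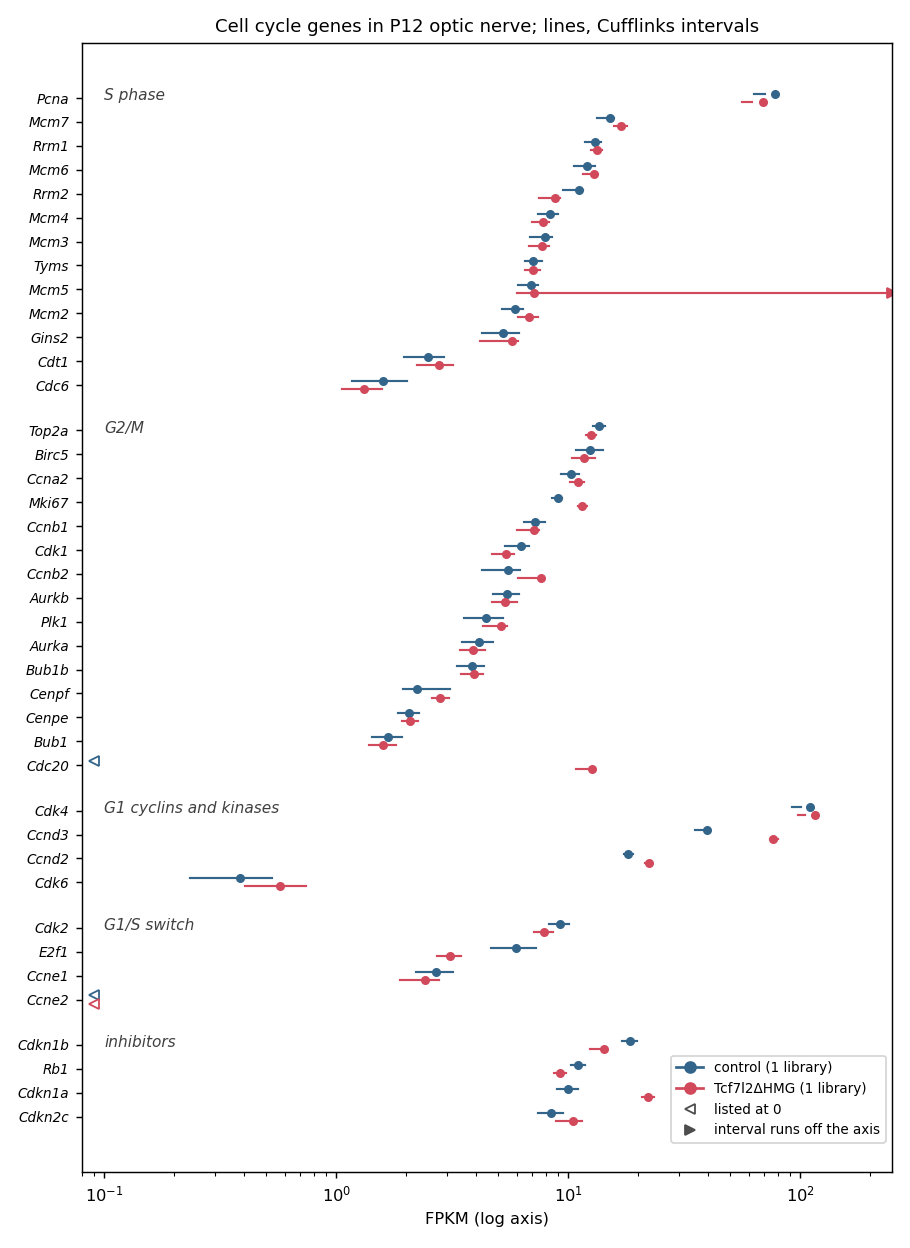
FPKM of the 40 cell cycle genes (log axis) in the control library (blue) and the *Tcf7l2*ΔHMG library (red), grouped by role and ordered by control FPKM; lines are Cufflinks intervals, open triangles mark values listed at 0 and the filled triangle an interval that runs off the axis. Points of both libraries lie close together for most genes, and *Ccnd3*, *E2f1*, *Cdkn1a* and *Cdc20* stand apart.

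The genes of S phase did not differ by the cutoff in any case, and their median log2 ratio was 0.02. Log2 ratios of the 13 genes ran from −0.34 to 0.20, with 6 below 0 and 7 above. The highest level belonged to *Pcna*, the sliding clamp of the DNA polymerases, at 77.9 and 68.9 FPKM (log2 ratio −0.18). This was the second highest FPKM of all 40 genes in the control, although the FPKM of *Pcna* lay above its own Cufflinks interval in both libraries (63.1 to 70.2 and 56.0 to 62.1), so the interval is a poor guide to its error. The 6 subunits of the MCM helicase, which unwinds DNA at the replication fork, ranged from 5.92 to 15.1 FPKM in the control, with log2 ratios from −0.11 to 0.20. *Mcm7* was measured at 15.1 and 16.8 FPKM (log2 ratio 0.16), *Mcm6* at 12.1 and 12.97 FPKM (0.10) and *Mcm4* at 8.36 and 7.77 FPKM (−0.11). *Mcm3* was at 7.92 and 7.69 FPKM (−0.04), *Mcm5* at 6.89 and 7.09 FPKM (0.04) and *Mcm2* at 5.92 and 6.81 FPKM (0.20). The intervals of both libraries overlapped for each of the 6. For *Mcm5* the mutant interval reached 1564 FPKM, so this overlap says little.

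Enzymes that supply deoxynucleotides gave the lowest ratio of the group. *Rrm2*, the small subunit of ribonucleotide reductase, was listed at 11.2 FPKM in the control (interval 9.47 to 11.6) and at 8.80 FPKM in the mutant (7.49 to 9.20), a log2 ratio of −0.34. Its partner *Rrm1*, the large subunit, stood at 13.1 and 13.3 FPKM (log2 ratio 0.02), and *Tyms*, thymidylate synthase, at 7.08 and 7.02 FPKM (−0.01). *Rrm2* and *Pcna* were the S phase genes whose intervals did not overlap, and both were lower in the mutant. Among the factors that load the helicase, *Cdc6* was at 1.60 and 1.32 FPKM (log2 ratio −0.26) and *Cdt1* at 2.50 and 2.76 FPKM (0.14). *Gins2*, a subunit of the complex that activates the helicase, was at 5.23 and 5.74 FPKM (0.13). These low genes had wide intervals, and for *Cdc6* the log2 ratio that the intervals allow ran from −0.88 to 0.40.

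Genes of G2 and mitosis gave the same picture, and the median over the 15 genes was 0.01, or 0.00 without *Cdc20*. The 14 genes other than *Cdc20* had log2 ratios from −0.20 to 0.46. *Mki67*, which encodes the proliferation marker Ki67, was listed at 8.99 FPKM in the control (interval 8.52 to 9.41) and 11.5 FPKM in the mutant (11.1 to 12.005), a log2 ratio of 0.35. When all rows were rescaled its ratio was −0.31, beside a median of −0.63 over all genes. *Mki67* was the only one of these 14 genes whose intervals did not overlap. Its Cufflinks rows were of different kinds in control and mutant, as described below. The highest ratio was that of *Ccnb2*, a B-type cyclin, at 5.50 and 7.62 FPKM (log2 ratio 0.46, range allowed by the intervals −0.03 to 0.85). The other B-type cyclin, *Ccnb1*, stood at 7.16 and 7.09 FPKM (−0.01), and *Ccna2*, cyclin A, at 10.2 and 11.0 FPKM (0.10). *Cdk1*, the kinase that these cyclins activate, had the lowest ratio of the group, at 6.23 and 5.41 FPKM (−0.20). The cyclins and their kinase thus lay on both sides of 0.

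Among the remaining mitotic genes, *Top2a*, the topoisomerase that untangles replicated chromosomes, was at 13.6 and 12.5 FPKM (log2 ratio −0.12). *Birc5*, which encodes survivin, was at 12.5 and 11.7 FPKM (−0.09). Survivin acts together with the kinase Aurora B, whose gene *Aurkb* was at 5.43 and 5.34 FPKM (−0.02). *Aurka*, which encodes Aurora A, was at 4.10 and 3.90 FPKM (−0.07), and *Plk1*, another mitotic kinase, at 4.40 and 5.12 FPKM (0.21). The checkpoint kinases *Bub1* (1.66 and 1.59 FPKM) and *Bub1b* (3.83 and 3.92 FPKM) had log2 ratios of −0.06 and 0.03. Of the kinetochore proteins, *Cenpe* was at 2.06 and 2.09 FPKM (0.01) and *Cenpf* at 2.23 and 2.80 FPKM (0.32). All of these intervals overlapped between the libraries.

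*Cdc20*, the activator of the anaphase-promoting complex, was listed at 0 in the control, with an upper interval bound of 0.0406 FPKM, and at 12.6 FPKM in the mutant (interval 10.8 to 13.1). Its mutant value was close to those of *Top2a* and *Birc5*. A value of exactly 0 in these tables can be an estimate that failed, and 103 of the genes tested were listed at 0 in the control and at 5 FPKM or more in the mutant, among them *Morf4l2* (0 and 148 FPKM), while 87 showed the opposite. The row of *Cdc20* (chromosome 4 from 118105506 to 118109948, mm9) shares 52 bases with that of the adjacent gene *Elovl1*, which was listed at 119.0 and 77.2 FPKM. No fold change is given for *Cdc20*.

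**Figure D2:**
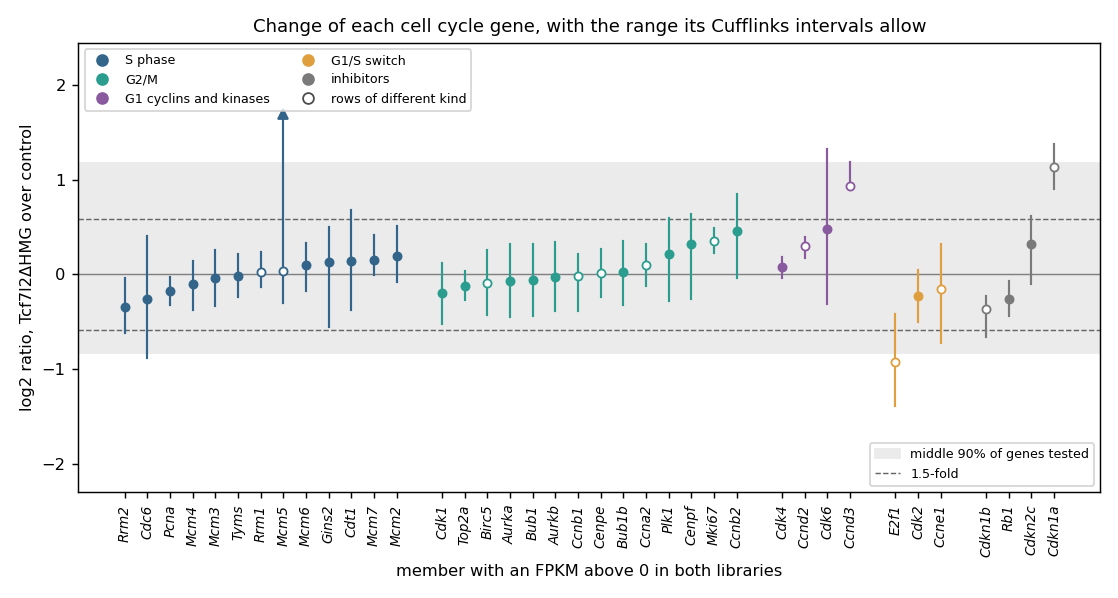
Log2 ratio of *Tcf7l2*ΔHMG over control for each cell cycle gene with an FPKM above 0 in both libraries, ordered within its role; lines show the range that the Cufflinks intervals of both libraries allow, the grey band holds the middle 90% of genes tested and dashed lines mark a fold change of 1.5. Genes of S phase and G2/M lie between −0.34 and 0.46, *E2f1* at −0.93, *Ccnd3* at 0.94 and *Cdkn1a* at 1.14; open symbols mark genes with a reference row in 1 library and an assembled row in the other, and the arrow marks the interval of *Mcm5*, which runs off the axis.

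The medians of S phase and G2/M genes differed by 0.009 on the log2 scale. Under the other settings tried it ran from −0.06 to 0.02, and it was −0.03 when all rows were rescaled. Both lists held nearly as many genes below 0 as above, 6 and 7 in S phase and 7 and 8 in G2/M. Cufflinks intervals that did not overlap were found for 2 genes of S phase, both lower in the mutant (*Rrm2* and *Pcna*). The same held for 2 of G2/M, both higher (*Mki67* and *Cdc20*). The FPKM of *Pcna* lay above its own interval in both libraries. *Cdc20* was listed at 0 in the control and passed the filter through its mutant value alone. Over the 38 genes that passed the filter, 5 were lower and 5, with *Cdc20*, higher with intervals that did not overlap. Of all genes tested, 22.4% and 30.0% were. Because the nerve was measured as a whole, fewer cells of a type and less RNA per cell cannot be told apart in any of these values.

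Promoter windows are shown because the E2F and CHR letters were found in different numbers of S phase and G2/M windows. The CCAAT and GC box letters were found in most windows of both lists, and the TCF letters in few. Windows of 300 bases, from 250 before to 50 after the start site, were taken from RefSeq (GRCm38.p6) and matched 33 of the 40 genes by symbol, in 37 windows. Letters were searched on both strands. For E2F the letters were TTTGGCGC, TTTCCCGC, TTTGGCGG or TTTCGCGC, for the cell cycle genes homology region (CHR) TTTGAA or TTTAAA, for the CCAAT box CCAAT, for the GC box GGGCGG and for TCF factors CTTTGAT or CTTTGTT. The E2F letters were found in 6 of 12 S phase windows and in 1 of 13 G2/M windows, compared with 2.37% of 32851 windows of all genes. The CHR letters were found in 3 of 12 S phase windows and in 12 of 13 G2/M windows, compared with 27.6% of all windows. CCAAT was found in 9 of 12 and in 12 of 13 windows (37.4% of all). The GC box was found in 29 and the TCF letters in 3 of the 37 windows (35.7% and 9.33% of all). Matches of different motifs overlapped in 1 case. A match of letters is a description and not a binding site, and the mRNA values do not bear on binding.

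The windows of the genes with the largest log2 ratios, regardless of sign, in S phase (*Rrm2* and *Cdc6*) and G2/M (*Cdc20* and *Ccnb2*) and among the inhibitors (*Cdkn1a*, with windows at each of its start sites) are printed 5′ to 3′ on the strand of the gene, with matches of the E2F, CHR and CCAAT letters in capitals.
Rrm2, chr12:24708004-24708303, + strand: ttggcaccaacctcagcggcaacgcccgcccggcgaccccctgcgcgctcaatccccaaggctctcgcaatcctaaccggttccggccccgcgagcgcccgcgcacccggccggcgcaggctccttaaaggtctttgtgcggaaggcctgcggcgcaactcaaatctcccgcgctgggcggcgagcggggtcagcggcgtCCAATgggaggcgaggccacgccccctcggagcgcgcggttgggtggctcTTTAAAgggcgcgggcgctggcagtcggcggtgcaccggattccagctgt
Cdc6, chr11:98907901-98908200, + strand: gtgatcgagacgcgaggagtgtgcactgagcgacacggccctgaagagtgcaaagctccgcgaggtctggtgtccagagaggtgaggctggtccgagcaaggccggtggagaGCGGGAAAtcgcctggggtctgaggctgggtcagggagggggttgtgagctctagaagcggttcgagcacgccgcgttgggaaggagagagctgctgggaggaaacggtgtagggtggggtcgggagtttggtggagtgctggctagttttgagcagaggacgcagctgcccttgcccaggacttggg
Cdc20, chr4:118437294-118437593, - strand: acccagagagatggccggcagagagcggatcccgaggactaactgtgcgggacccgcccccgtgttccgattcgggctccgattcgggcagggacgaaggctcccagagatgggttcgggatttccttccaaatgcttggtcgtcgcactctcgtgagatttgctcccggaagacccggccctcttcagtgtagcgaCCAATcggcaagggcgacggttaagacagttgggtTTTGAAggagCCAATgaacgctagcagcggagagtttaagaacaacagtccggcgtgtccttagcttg
Ccnb2, chr9:70421505-70421804, - strand: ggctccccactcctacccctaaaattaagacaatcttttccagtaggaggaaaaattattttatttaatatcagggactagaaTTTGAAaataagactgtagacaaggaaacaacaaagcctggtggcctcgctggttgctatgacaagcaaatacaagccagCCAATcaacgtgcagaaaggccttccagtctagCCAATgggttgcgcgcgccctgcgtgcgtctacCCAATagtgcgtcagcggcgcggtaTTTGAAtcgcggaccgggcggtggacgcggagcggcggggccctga
Cdkn1a (window 1), chr17:29090729-29091028, + strand: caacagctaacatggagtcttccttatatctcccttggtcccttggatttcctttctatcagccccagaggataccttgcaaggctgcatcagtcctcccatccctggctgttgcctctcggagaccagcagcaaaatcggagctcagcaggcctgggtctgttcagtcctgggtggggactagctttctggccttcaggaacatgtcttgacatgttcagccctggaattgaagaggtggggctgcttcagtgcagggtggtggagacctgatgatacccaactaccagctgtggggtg
Cdkn1a (window 2), chr17:29093519-29093818, + strand: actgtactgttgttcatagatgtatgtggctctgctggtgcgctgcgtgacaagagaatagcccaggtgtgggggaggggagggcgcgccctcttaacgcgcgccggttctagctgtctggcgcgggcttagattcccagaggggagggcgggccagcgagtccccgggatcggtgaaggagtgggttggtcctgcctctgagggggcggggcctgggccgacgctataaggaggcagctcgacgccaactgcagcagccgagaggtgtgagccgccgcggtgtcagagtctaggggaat
Positions are counted from 0 at the start site. In *Cdc6* the E2F letters lie from −138 to −131, on the strand opposite to the gene. *Rrm2* holds a CCAAT box from −50 to −46 and the CHR letters from 0 to 5. In *Cdc20* the CHR letters lie from −18 to −13, with CCAAT boxes from −53 to −49 and from −8 to −4. *Ccnb2* holds CCAAT boxes from −87, −54 and −21 and the CHR letters from −167 and from 4. No match of these 3 kinds of letters was found in either window of *Cdkn1a*.

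The G1 genes held the highest level of the list and 1 of the large differences. *Ccnd3*, cyclin D3, was listed at 39.8 FPKM in the control (interval 35.1 to 39.8) and at 76.4 FPKM in the mutant (74.1 to 79.9). The mutant value was 1.92 times the control value, a log2 ratio of 0.94, with a range from 0.89 to 1.18 allowed by the intervals. The gene lies on chromosome 17 from 47642000 to 47736637 in the files, whose build is named as mm9 in the processing notes. Among genes of the same decile of expression, 93.5% had a lower log2 ratio. *Ccnd2*, cyclin D2, was at 18.03 FPKM (interval 17.4 to 18.95) and 22.3 FPKM (21.4 to 22.9), a log2 ratio of 0.30 with intervals that did not overlap. When all rows were rescaled its ratio was −0.37, beside a median of −0.63 over all genes. *Ccnd1*, the remaining D-type cyclin, which is not one of the 40 genes, was at 55.2 and 72.7 FPKM (0.40). *Ccnd3* made up 35.2% of the summed FPKM of the 3 D-type cyclins in the control and 44.6% in the mutant, while *Ccnd1* made up 48.8% and 42.4%, so *Ccnd1* had the highest FPKM of the 3 in the control, whereas in the mutant the intervals of *Ccnd1* (71.4 to 75.4) and *Ccnd3* overlapped. *Cdk4*, the kinase partner of these cyclins, had the highest FPKM of all 40 genes in both libraries, at 109.7 and 116.0 FPKM (log2 ratio 0.08), although both values lay above their own intervals. Its relative *Cdk6* was below the filter, and its intervals overlapped.

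At the switch from G1 to S phase, *E2f1* was lower in the mutant. This transcription factor, the founding member of the E2F family, was listed at 5.96 FPKM in the control (interval 4.65 to 7.27) and at 3.08 FPKM in the mutant (2.72 to 3.45). The mutant value was 0.518 times the control value, a log2 ratio of −0.93 with an allowed range from −1.39 to −0.42, and 4.86% of genes of the same decile had a lower ratio. The row lies on chromosome 2 from 154385136 to 154395628. *Cdk2* was at 9.20 and 7.84 FPKM (log2 ratio −0.23) and *Ccne1*, cyclin E1, at 2.69 and 2.40 FPKM (−0.16), both with overlapping intervals. The 3 genes of this group that passed the filter were thus all below 0, with a median of −0.23.

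The inhibitors did not share a direction. *Cdkn1a*, which encodes p21, an inhibitor of cyclin-dependent kinases and a well known target of p53, was listed at 9.9999 FPKM in the control (interval 8.98 to 11.04) and at 22.2 FPKM in the mutant (20.8 to 23.5). It was 2.22 times as high in the mutant, a log2 ratio of 1.14 with an allowed range from 0.91 to 1.38, and 96.9% of genes of the same decile had a lower ratio. The row spans chromosome 17 from 29227931 to 29237667. *Cdkn1b*, which encodes p27, had the highest control FPKM of the 4 inhibitors among the 40 genes, though not of the further inhibitors counted below. It was lower in the mutant, at 18.4 FPKM (interval 17.01 to 19.8) and 14.3 FPKM (12.5 to 14.5), a log2 ratio of −0.36 with intervals that did not overlap. *Rb1*, the retinoblastoma protein, was at 11.0 FPKM (10.3 to 11.8) and 9.22 FPKM (8.65 to 9.79), a log2 ratio of −0.25. *Cdkn2c*, which encodes p18, an inhibitor of Cdk4 and Cdk6, was at 8.42 and 10.5 FPKM (0.32) with overlapping intervals. In FPKM, a level per length, *Cdkn1a* was thus below *Cdkn1b* in the control library and above it in the mutant library.

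For *Ccnd3*, *E2f1* and *Cdkn1a* the kind of row differed between the tables. Cufflinks reports a gene either under its reference symbol or under an identifier of its own assembly, and this choice was made in each library separately. Of the 38 genes, 13 had a row of different kind in each library, and these included *Ccnd3* (reference row in the control, assembled row in the mutant), *E2f1* and *Cdkn1a* (both assembled in the control and reference in the mutant). Of the 25 genes with rows of the same kind, none was lower and 1 (*Cdc20*) was higher by the cutoff. Over all genes with reference rows in both libraries, 5.89% were lower and 17.7% higher. With assembled rows in both, 9.94% were lower and 13.3% higher. The kind of row moved with the ratio over all genes. Among the 1872 genes that went from a reference to an assembled row the median was 0.20, and 25.7% were higher by the cutoff. The 1464 genes that went from an assembled to a reference row had a median of −0.09, with 14.3% lower and 6.97% higher. Where both rows were reference rows the median was 0.08 over 3500 genes, and where both were assembled it was 0.02 over 7363 genes. *Ccnd3* lay above 85.8% and *Cdkn1a* above 97.7% of genes with the same pair of rows, and *E2f1* above 7.65%. *Mki67*, which also went from a reference to an assembled row, lay above 62.3% of such genes. *Ccnd2* and *Cdkn1b*, both assembled in the control and reference in the mutant, lay above 82.4% and 25.1%. The part of the kind of row in these differences was not tested.

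**Figure D3:**
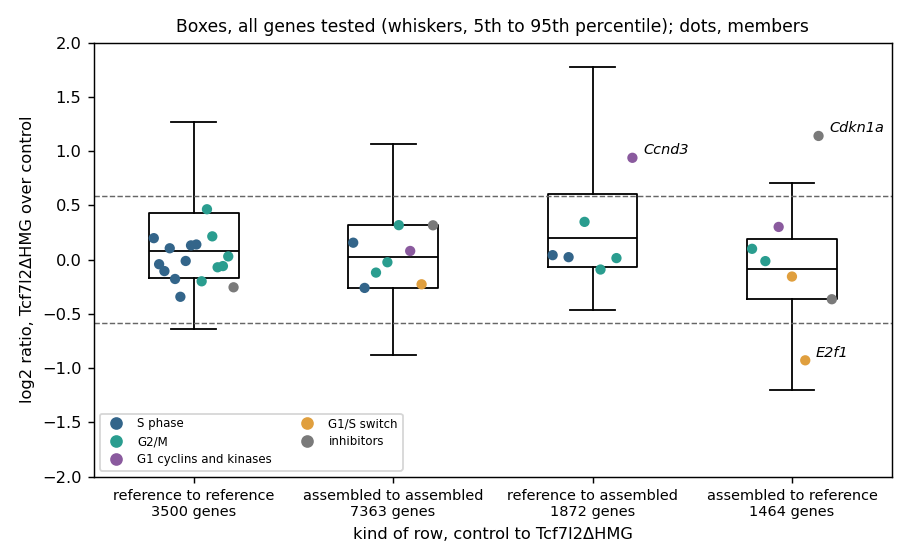
Log2 ratio of *Tcf7l2*ΔHMG over control by the kind of Cufflinks row in the control and the mutant library; boxes show the quartiles and median of all genes tested, whiskers the 5th and 95th percentiles, and dots the cell cycle genes, coloured by role, without *Cdc20*, which was listed at 0 in the control. *Ccnd3* lies among genes that went from a reference to an assembled row, whose median is 0.20, and *E2f1* and *Cdkn1a* among those that went the other way, whose median is −0.09.

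Further genes of the same pathways were counted from lists written by function. Of 45 other genes of DNA replication, 42 passed the filter, 1 was lower and 2 were higher by the cutoff, and the median log2 ratio was 0.00. The lower one was *Cdc7*, a kinase that fires replication origins, at 7.49 and 4.20 FPKM (log2 ratio −0.82). The higher ones were *Rpa3*, a subunit of the protein that binds single-stranded DNA, at 14.9 and 51.8 FPKM (1.79) with a control FPKM above its own interval, and *Orc1*, of the origin recognition complex, at 0.645 and 1.22 FPKM (0.83). Of 60 other mitotic genes, 56 passed, 3 were lower, 5 were higher and the median was −0.06. The lowest were *Kif20b* (2.80 and 1.23 FPKM, log2 ratio −1.12), *Hmmr* (7.06 and 4.06 FPKM, −0.78) and *Anln* (5.54 and 3.59 FPKM, −0.61), which act on the spindle and in cytokinesis. *Trip13* was listed at 0 and 1.58 FPKM. Of the others, *Troap* (1.04 and 3.48 FPKM, 1.65) and *Bub3*, a partner of the kinases Bub1 and Bub1b (33.7 and 85.4 FPKM, 1.34), were the highest. Within the cutoff lay 39 of 42 genes of replication and 48 of 56 of mitosis, beside 27 of the 28 genes of S phase and G2/M described above and 76.1% of all genes tested.

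Of 22 other G1 cyclins and factors of the E2F and DREAM complexes, 20 passed the filter and none differed by the cutoff (median log2 ratio 0.09). The lowest was *E2f3*, at 7.87 and 5.28 FPKM (−0.57), and the highest *Myc*, at 8.82 and 12.5 FPKM (0.49). Of 14 other inhibitors and genes of growth arrest, 13 passed, none was lower and 3 were higher. The median of the 13 was 0.28, with 10 above 0. When all rows were rescaled their median was −0.37, beside −0.63 for all genes. Over all genes tested 15.4% were higher by the cutoff and 54.6% lay above 0. The 3 higher ones of this list were *Btg2* (4.54 and 7.26 FPKM, log2 ratio 0.67), *Gadd45g* (9.42 and 14.7 FPKM, 0.64) and *Gadd45b* (7.84 and 11.95 FPKM, 0.60). They are known as genes induced by stress and by growth arrest. The mutant FPKM of *Gadd45g* and *Gadd45b* lay above their own intervals, and for *Gadd45g* the intervals of both libraries overlapped. *Rbl2*, a relative of *Rb1*, had the lowest value of this list, at 14.3 and 9.96 FPKM (−0.52). *Trp53*, which encodes p53, was at 21.8 and 29.1 FPKM (0.41) and was not among the 3 largest rises of this list.

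**Figure D4:**
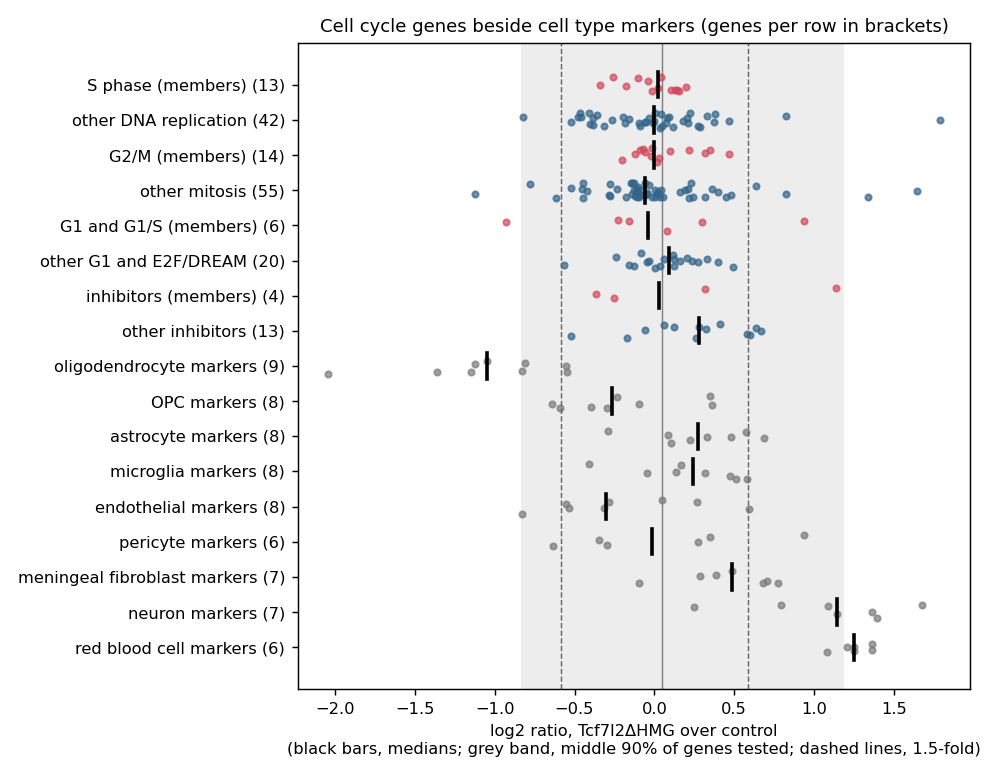
Log2 ratio of *Tcf7l2*ΔHMG over control for cell cycle genes (red), other genes of the same pathways (blue) and markers of cell types (grey) that passed the filter and had an FPKM above 0 in both libraries; black bars are medians, the thin line is the median of all genes tested, the grey band holds the middle 90% of genes tested and dashed lines mark a fold change of 1.5. Lists of replication and mitosis centre near 0, OL markers at −1.05, and neuron and red blood cell markers above 1.

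Markers of the cell types of the nerve differed between the libraries. For the counts of each marker list, the shares over all genes tested were 8.52% lower and 15.4% higher by the cutoff. All 9 OL markers were lower in the mutant, 7 of them by the cutoff. Their median was −1.05, with a summed FPKM of 31660 in the control and 18120 in the mutant. Of 8 OPC markers, 2 were lower by the cutoff (*Vcan* and *Gpr17*) and none was higher, with a median of −0.27. By sign, 6 lay below 0 and 2 above, *Ptprz1* at 0.36 and *C1ql1* at 0.35, both with intervals that did not overlap. The summed FPKM was 446.6 and 366.0, of which *Gpr17* alone held 235.0 and 155.8 FPKM. *Pdgfra*, the receptor that defines OPCs, was at 35.9 and 33.6 FPKM (log2 ratio −0.09), and it is also expressed in fibroblasts. Its mutant interval reached 161 FPKM, so the overlap of its intervals says little. Medians were 0.27 for 8 astrocyte markers, 0.24 for 8 microglia markers, −0.30 for 8 endothelial markers, −0.01 for 6 pericyte markers and 0.49 for 7 markers of meningeal fibroblasts, whose summed FPKM was 924.5 and 1312. By the cutoff, 1 astrocyte and 3 fibroblast markers were higher, no microglia marker differed, and 1 endothelial and 1 pericyte marker lay on each side. The astrocyte, microglia and fibroblast medians were −0.40, −0.42 and −0.19 when all rows were rescaled, beside −0.63 for all genes. Of 8 skeletal muscle markers, 3 passed the filter and 1 was higher. All 7 neuron markers that passed the filter were higher in the mutant, 6 of them by the cutoff, with a median of 1.14, and the summed FPKM of the 8 listed was 28.6 and 51.4. All 6 red blood cell markers were higher, with a median of 1.25, but they are not separate measurements because globin symbols share merged rows. *Hba-a1* and *Hba-a2* had the same values (88.7 and 227.9 FPKM), as did *Hbb-b1* and *Hbb-bs* (43.8 and 104.4 FPKM). The summed FPKM of the 6 (295.4 and 734.9) counts these values repeatedly. Of all markers, 1 photoreceptor gene was at 0, in the mutant. Which cells the cell cycle mRNAs came from, and the part of these markers in *Cdkn1a*, *Ccnd3* and *E2f1*, was not tested.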

How the data were processed

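Total RNA of optic nerves at P12 was sequenced with 1 library of control and 1 of *Tcf7l2*ΔHMG mice. The authors mapped reads with TopHat at default settings, and the processing notes name mm9. The deposited tables give FPKM by Cufflinks, with interval bounds and a status for each row; versions are not given in the sources used here. Starts of rows are counted from 0 in the tables and were raised by 1, which made 9462 of 22463 rows as long as the RefSeq gene. Names merged by commas were split, the FPKM of a symbol was summed, and the 14199 symbols with status OK in both libraries and at least 1 FPKM in 1 of them were compared. Each of the 40 genes had a single row that was not merged. The log2 ratio used a pseudocount of 0.1 and genes were called above a fold change of 1.5. Genes whose ratio is named are the 40 genes, *Tcf7l2*, the markers and the largest falls and rises of each further list. *Trp53* was named outside this rule. The 40 genes and the lists were chosen with earlier results of these data known. Depth was the smallest number of fragments for which the interval bounds of unnamed rows under 100 bases were whole multiples of 1 fragment, within 0.00151 in the control and 0.00122 in the mutant. Other settings numbered 14, with 3 more chosen after seeing the data. Python 3.11.15, numpy 2.4.6, pandas 2.3.3 and matplotlib 3.10.9 were used.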

Additional observations from a re-analysis of the deposited data

How the results depend on the processing

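With 1 library per genotype, no replicate could be left out. No paired analysis was possible because each genotype has a single library and the labels carry no replicate number. For ratios, a margin was taken from the intervals. For a gene it is the mean distance from its log2 ratio to the ends of the range its intervals allow. For a median, and for the difference of medians, it is the median margin of the genes. The counts by the cutoff, the medians of each role and the difference of the S phase and G2/M medians were compared under other settings. Of these values, 177 stayed within 1.5 times the count or within that margin. Of the 15 values that did not, 9 came from rescaling all rows to a common sum. This gave 8 S phase and 9 G2/M genes lower, 23 genes lower and 1 higher over all roles, and medians of −0.64 (S phase), −0.61 (G2/M), −0.37 (G1 cyclins and kinases), −0.88 (G1/S switch) and −0.63 (inhibitors). It shifted 35 of 37 single genes by more than their margin, and no other setting did so for any of them. Requiring 1 FPKM in both libraries, or leaving out genes listed at 0, removed *Cdc20* and left 0 G2/M genes higher. A fold change above 2 left 0 genes lower. With only genes whose rows were of the same kind in both libraries (25 genes), 0 were lower and 1 higher, and the G1 median was 0.08. Over all genes, 5.89% were lower and 17.7% higher with reference rows in both libraries, and 9.94% and 13.3% with assembled rows in both. This restriction to rows of the same kind was chosen after seeing the data. So were the leaving out of genes listed at 0 and the use of the lower interval bound in place of the FPKM. Over all genes tested, 1210 were lower and 2185 higher by the cutoff, 522 and 975 with a fold change above 2, 1644 and 3207 without a filter, and 7182 and 485 after all rows were rescaled. In the control 3 fragments on 1 kb amount to 0.109 FPKM. *Cdk6* lay above this value, at 0.383 and 0.575 FPKM, and *Ccne2* was listed at 0 in both libraries. Neither passed the filter and the intervals of each overlapped, so no difference was detectable for them. The part of depth, or of a failed estimate, in these low values was not tested.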

Other observations

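Genes listed at 0 in 1 library were examined because *Cdc20* and *Trip13* are among them. Of the 103 genes at 0 in the control and at 5 FPKM or more in the mutant, 63 had symbols of small RNAs, and of the 87 with the opposite pattern 53 had. The others included genes used in most cells, such as *Setdb1*, a histone methyltransferase (0 and 11.3 FPKM), and *Med19*, a subunit of the Mediator complex (0 and 10.8 FPKM). An exact 0 in these tables therefore does not show that a gene is silent.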
